A study of Mus musculus with 6 samples.

Results

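Immunoglobulin constant region genes encode the part of each antibody chain that sets its class. The 10 mouse genes described here are the heavy chain genes Ighm, Ighd, Ighg3, Ighg1, Ighg2b, Ighg2c and Igha, the kappa light chain gene Igkc and the lambda light chain genes Iglc1 and Iglc2. They were chosen by symbol from the 55573 genes of the count table, and the family was selected on measured values: it was proposed with the fold changes of this same comparison known. Their fold changes, calls and shares between the groups are therefore given as a description, with no test. Of the 10, 8 passed the low-count filter, and Ighd and Iglc2 did not. Iglc3, Iglc4 and Ighe, which are also in the table, are given beside them where they bear on a value. No row for Ighg2a was found.

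The libraries were made from total RNA of cells purified by flow sorting from the retina of C57BL/6 mice as retinal ganglion cells (RGCs), which send visual signals from the eye to the brain. All mice of both groups carried floxed alleles of Myh9 and Myh10, which encode motor subunits of nonmuscle myosin. AAV2, a viral vector, had been injected into the vitreous 2 weeks before, carrying GFP in the group labelled WT (3 libraries) and Cre recombinase in the group labelled dKO (3 libraries). A library pooled 3 retinas from 3 mice. The labels give no age, no promoter for Cre and no exon that Cre removes, and they do not say whether the libraries of a group share mice, so that the spread between libraries may be technical.

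Library totals were 4569880 to 6146226 counts. One ribosomal RNA row took 89.8% to 92.8% of 5 libraries and 64.2% of dKO replicate 3, which left 346037 to 576060 other counts in those 5 libraries and 1636581 in dKO replicate 3. Neither floxed gene was called, and the groups overlapped for both. Myh9 was at 64.2 ± 3.91 CPM (counts relative to the library size after TMM scaling; SD, n = 3) in WT-labelled and 62.7 ± 4.13 in dKO-labelled libraries, and Myh10 was at 18.7 ± 2.08 and 18.0 ± 3.39. Counts over a whole gene need not show the loss of some of its exons, and the groups are called WT-labelled and dKO-labelled throughout for this reason. Of 11 RGC markers, 3 passed the filter. Together the 11 took 0.0230% of the counts left without that row in WT-labelled and 0.0276% in dKO-labelled libraries, with Pou4f1, Pou4f2 and Pou4f3, transcription factors that define RGCs, at 14, 7 and 1 counts over all 6 libraries. The 10 constant region genes took 0.790% and 0.594% of the same counts.

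An antibody is a pair of heavy and a pair of light chains. A B cell first makes Ighm and Ighd from a common transcript, and class switching then joins the same variable region to a constant region further along the locus, such as an IgG gene or Igha. Light chains are either kappa or lambda, and mouse antibodies are mostly kappa. Plasma cells, the end stage of the lineage, transcribe the rearranged heavy and light chain genes at very high rates, and with them Jchain, whose product joins IgM and IgA into polymers. C57BL/6 mice carry Ighg2c in the place where some other strains carry Ighg2a. Lymphocytes are rare in the healthy retina.

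The IgG genes are known to differ in the hinge, the flexible stretch that links the 2 heavy chains through disulfide bonds. The hinge exons below are shown because Ighg2b and Ighg2c, the IgG pair whose balance differed between the groups, are the closest IgG relatives in sequence. They are transcript sequences of GENCODE M21 on GRCm38, read 5′ to 3′ on the minus strand of chromosome 12, with in-frame cysteine codons in capitals. The exons of Ighg2c (chr12:113288263-113288325), Ighg2b (chr12:113307261-113307326), Ighg1 (chr12:113329844-113329882) and Ighg3 (chr12:113360529-113360576) hold 3, 4, 4 and 1 such codons.
Ighg2c: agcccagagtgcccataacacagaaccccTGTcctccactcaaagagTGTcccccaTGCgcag
Ighg2b: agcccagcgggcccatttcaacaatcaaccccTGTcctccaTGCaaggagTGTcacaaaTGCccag
Ighg1: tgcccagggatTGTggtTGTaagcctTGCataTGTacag
Ighg3: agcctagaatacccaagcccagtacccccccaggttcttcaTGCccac

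Over the whole coding sequence Ighg2b and Ighg2c were 85.6% identical, against 73.8% to 75.5% for the other IgG pairs. Of the 50-base windows of Ighg2c exons, 5.49% also occurred in Ighg2b. No 100-base window of any member occurred in another gene of the family. The handling of reads with several matches is not given in the sources used here, and a read from one of the shared windows could be counted for either gene or for none.

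The lambda genes are shown because their order of abundance changed in 1 library. Capitals mark the bases of Iglc3 and Iglc1 that differ from Iglc2 over the first 120 coding bases. These are also GENCODE M21 transcript sequences on GRCm38, from the minus strand of chromosome 16, for Iglc2 (chr16:19198733-19198852), Iglc3 (chr16:19065562-19065681) and Iglc1 (chr16:19061952-19062071).
Iglc2: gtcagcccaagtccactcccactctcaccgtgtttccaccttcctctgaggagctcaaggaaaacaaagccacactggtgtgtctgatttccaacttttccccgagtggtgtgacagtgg
Iglc3: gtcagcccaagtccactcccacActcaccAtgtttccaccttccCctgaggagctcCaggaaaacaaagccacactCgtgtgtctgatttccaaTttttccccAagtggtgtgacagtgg
Iglc1: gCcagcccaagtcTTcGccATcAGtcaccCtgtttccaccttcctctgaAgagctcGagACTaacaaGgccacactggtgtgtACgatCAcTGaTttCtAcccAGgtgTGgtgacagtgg

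Iglc3 differed from Iglc2 at 7 and Iglc1 at 28 of the 120 bases. Over the whole coding sequence Iglc2 and Iglc3 were 96.2% identical, and Iglc1 was 73.4% identical to Iglc2. Of the 50-base windows of Iglc2, 7.65% occurred in Iglc3, so that counts of these 2 genes are less certain than those of Iglc1, which shared none.

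Constant region transcripts were detected in all 6 libraries and were fewer, relative to the other genes, in the dKO-labelled ones. The 10 genes took 0.824%, 0.668% and 0.878% of the counts outside the ribosomal RNA row in the WT-labelled replicates 1 to 3 and 0.545%, 0.633% and 0.605% in dKO-labelled replicates 1 to 3. Each WT-labelled library lay above each dKO-labelled one, and the ratio of the means was 0.753. As a share of the library total the ratio was 1.70, because the ribosomal RNA row was so much smaller in dKO replicate 3. In bulk samples fewer antibody-making cells and less antibody RNA per cell cannot be told apart.

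Per kilobase of exon, the order of the levels began with Igkc, at 530 ± 83.9 CPM per kilobase (SD, n = 3) in the WT-labelled and 366 ± 15.3 in the dKO-labelled libraries. Ighg2c followed at 214 ± 19.4 and 192 ± 19.5, then Ighg2b at 51.7 ± 13.1 and 28.1 ± 1.86, Igha at 39.1 ± 8.97 and 25.8 ± 4.25 and Ighm at 21.9 ± 3.28 and 21.5 ± 3.59. Each step down to Ighg2b was larger than the spread within a group. Ighg2b and Igha overlapped in both groups, and Igha and Ighm overlapped in the dKO-labelled libraries. Iglc1 was at 18.9 ± 4.59 in the WT-labelled libraries, where it overlapped with Ighm, and at 5.39 ± 3.38 in the dKO-labelled ones. Ighg3, Iglc2, Ighg1 and Ighd were all below 5 CPM per kilobase in every library. The order of the first 5 genes was the same in both groups. The exon length joins all transcripts of a gene and is 2678 bases for Ighg2b but 1326 for Ighg2c. On the length of the transcript with the fewest exons, 1114 and 1111 bases, Ighg2b was at 124 ± 31.5 and 67.5 ± 4.48. Ighg2c was then at 255 ± 23.1 and 230 ± 23.3, and Ighg3, above 5, at 8.65 ± 2.55 and 8.21 ± 2.02. The gap between Ighg2c and Ighg2b per kilobase thus depends on the length used.

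**Figure D1:**
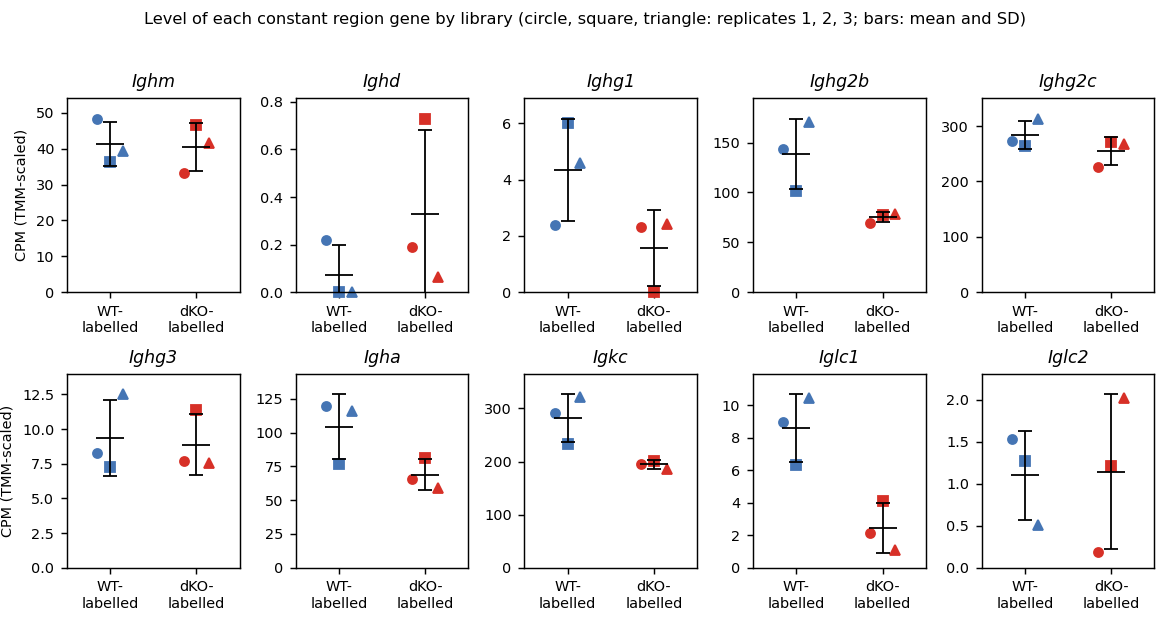
CPM (scaled by TMM) of each of the 10 constant region genes in the 3 WT-labelled (blue) and 3 dKO-labelled (red) libraries, with the mean and SD of each group in black; the vertical axis of each panel starts at 0. The groups are apart for Ighg2b, Igkc and Iglc1 and overlap for the other 7 genes. The share of all tested genes without overlap was not computed, so nothing is read from this count.

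In the fit over all 8444 tested genes, 1.92% passed an adjusted p of 0.05 by edgeR's quasi-likelihood test, 1.18% lower and 0.734% higher in the dKO-labelled libraries. Of the 8 tested constant region genes, 4 were called lower (Ighg2b, Igha, Igkc and Iglc1) and 0 higher; since the genes were chosen on this comparison, nothing is read from that count. All 8 log2 fold changes were below 0, with a median of -0.59 against -0.00072 over all genes tested.

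Ighm, the constant region of IgM and the first in the locus, differed little between the groups. It stood at 48.3, 36.4 and 39.3 CPM in the WT-labelled and 33.2, 46.6 and 41.6 CPM in the dKO-labelled libraries. The groups overlapped, and the log2 fold change was -0.047 ± 0.11 (SE). It was above 0 without WT replicate 1 (0.083) or without dKO replicate 1 (0.061). Ighd, the constant region of IgD on naive B cells, had 1, 0 and 0 counts in the WT-labelled and 1, 3 and 1 in the dKO-labelled libraries. The 3 counts are 0.149% of the heavy chain counts of dKO replicate 2, and the 0 counts of WT replicate 2 allow a share of up to 0.193%.

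Ighg2b, an IgG subclass that binds Fc receptors and complement, was at 144, 101 and 171 CPM in the WT-labelled and 69.5, 77.4 and 78.7 CPM in the dKO-labelled libraries. The lowest WT-labelled library was above the highest dKO-labelled one, and the means were 139 ± 35.1 and 75.2 ± 4.99 (SD, n = 3). The log2 fold change was -0.89 ± 0.11 (SE). The 3 dKO-labelled libraries lay close together, while the WT-labelled ones spread more widely, with replicate 2 the lowest.

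Ighg2c, an IgG subclass that also binds Fc receptors and complement, was at 274, 264 and 313 CPM in the WT-labelled and 225, 272 and 268 CPM in the dKO-labelled libraries. The groups overlapped, and the log2 fold change was -0.15 ± 0.10 (SE). It was -0.073 without WT replicate 3 and -0.066 without dKO replicate 1. The ratio of Ighg2c to Ighg2b counts within a library needs no scaling between libraries. It was 1.90, 2.61 and 1.83 in the WT-labelled and 3.24, 3.51 and 3.41 in the dKO-labelled libraries. Every dKO-labelled library was above every WT-labelled one, although the 2 genes are neighbours in the locus.

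The other IgG genes were rare. Ighg3, a subclass often made against carbohydrate antigens, had 23 to 49 counts in the WT-labelled and 40 to 116 in the dKO-labelled libraries, with a log2 fold change of -0.17 ± 0.19 (SE) that was 0.086 without WT replicate 3. Ighg1, the subclass typical of responses driven by interleukin-4, had 11, 19 and 18 counts in the WT-labelled and 12, 0 and 37 in the dKO-labelled libraries. That is 2.40, 6.02 and 4.59 CPM against 2.30, 0 and 2.42 CPM, so that the groups overlapped. Its 0 counts among the 2016 heavy chain counts of dKO replicate 2 allow a share of up to 0.149%, below the 0.570% and 0.528% of the other dKO-labelled libraries. The log2 fold change of Ighg1 was -1.08 ± 0.36 (SE). It was -1.67 and past the threshold when dKO replicate 3 was left out, and -0.79 when dKO replicate 2 was.

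Igha, the constant region of IgA, the class of mucosal secretions, was at 120, 76.7 and 116 CPM in the WT-labelled and 65.8, 81.3 and 59.2 CPM in the dKO-labelled libraries. The groups overlapped, since WT replicate 2 was below dKO replicate 2. The log2 fold change was -0.64 ± 0.11 (SE), and DESeq2 did not call the gene. The ratio of Igha to Ighm counts was 2.48, 2.10 and 2.96 in the WT-labelled and 1.98, 1.74 and 1.42 in the dKO-labelled libraries, again with no overlap. Ighe, the constant region of IgE, had 0 counts in every library.

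As shares of the heavy chain counts, Ighg2c took 45.9%, 53.7% and 47.7% in the WT-labelled and 55.8%, 55.6% and 58.6% in the dKO-labelled libraries. Ighg2b took 24.1%, 20.6% and 26.0% against 17.2%, 15.8% and 17.2%. Neither gene's shares overlapped between the groups, and the means differed by 7.56 percentage points for Ighg2c (higher in dKO-labelled) and -6.83 for Ighg2b. The Ighm share was also higher in each dKO-labelled library, at 8.94% ± 0.664 against 7.16% ± 1.08 (SD, n = 3). The nearest libraries differed by little, at 8.22% in dKO replicate 1 and 8.10% in WT replicate 1, whose 95% Wilson intervals of 7.12% to 9.47% and 7.13% to 9.18% almost coincide. These intervals cover counting error only.

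The share of Igha was 17.8% ± 2.24 in the WT-labelled and 15.3% ± 2.05 in the dKO-labelled libraries, with overlap. All IgG genes together held overlapping shares in the 2 groups, at 71.8%, 77.0% and 76.3% in the WT-labelled and 75.4%, 73.7% and 78.0% in the dKO-labelled libraries, so that what differed within IgG was its make-up: among IgG counts Ighg2b was 31.5% ± 4.14 against 22.1% ± 0.667. Per kilobase of exon, where long genes weigh less, Ighg2c made up 64.6% ± 3.63 and 70.7% ± 1.37 of the heavy chain and Ighg2b 15.4% ± 2.17 and 10.3% ± 0.458. By the length of the transcript with the fewest exons, Ighg2c made up 49.9% ± 4.20 and 57.9% ± 1.78 and Ighg2b 23.9% ± 2.78 and 17.0% ± 0.790. Libraries of the same group also differed in isotype make-up by more than counting noise, with a chi-square per degree of freedom of 3.84 to 7.82 between WT-labelled pairs and 3.13 to 6.95 between dKO-labelled pairs. Pairs across the groups had 2.50 to 35.7. This value grows with the counts of a pair, so it does not rank the pairs by how far apart they are.

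**Figure D2:**
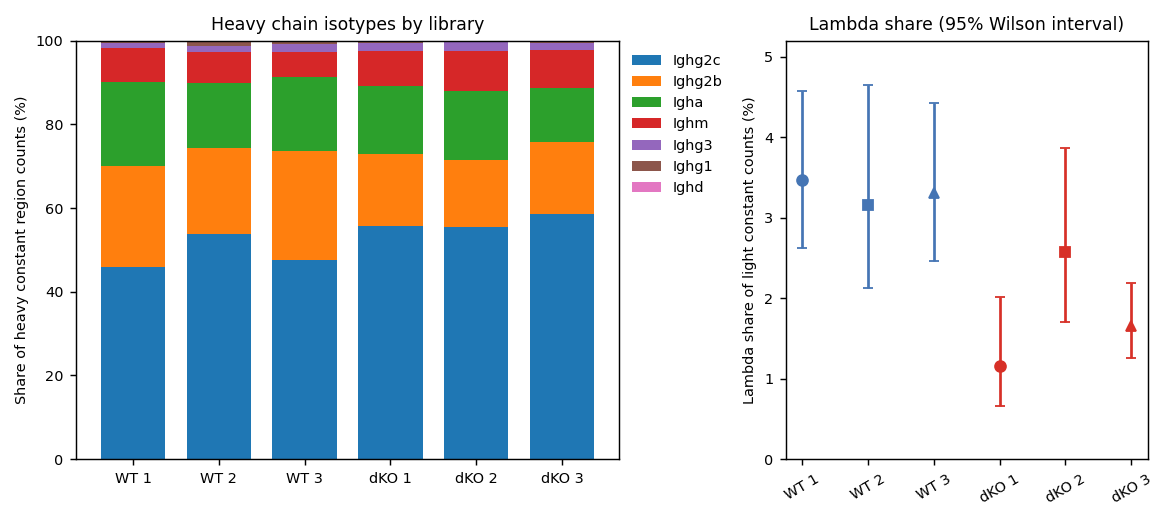
Left, share of each heavy chain constant region gene in the heavy chain counts of each library (percent, stacked to 100). Right, share of Iglc1 and Iglc2 together in the light chain counts (percent) with 95% Wilson intervals, WT-labelled in blue and dKO-labelled in red. Ighg2c holds 45.9% to 53.7% in the WT-labelled and 55.6% to 58.6% in the dKO-labelled libraries, and the highest dKO-labelled lambda share, 2.58%, is below the lowest WT-labelled one, 3.16%.

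Along chromosome 12 the genes are transcribed on the minus strand in the order Ighm (113418558 to 113422730 in GRCm38), Ighd, Ighg3, Ighg1, Ighg2b (113302965 to 113307933), Ighg2c (113285325 to 113288932), Ighe and Igha (113254830 to 113260236). The fold changes did not follow this order. Ighm, Ighg3 and Ighg2c, at the start, near the start and near the end, were closest to 0. Ighg1 and Ighg2b, in the middle, were lowest, and Igha at the end lay between.

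**Figure D3:**
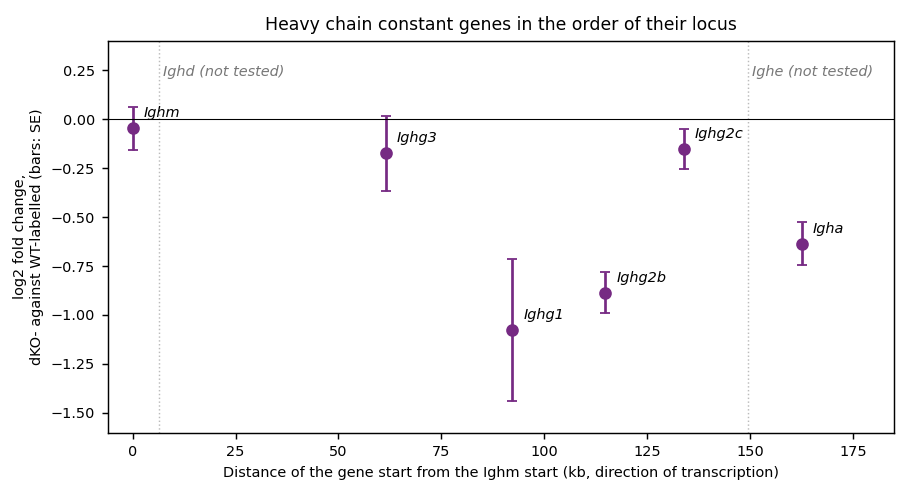
log2 fold change (dKO-labelled against WT-labelled, bars are SE) of the 6 tested heavy chain constant region genes other than Ighd and Ighe, against the distance in kilobases from the start of Ighm in the direction of transcription. Ighg2b at -0.89 and its neighbour Ighg2c at -0.15 stand apart, and no trend along the locus is drawn.

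Igkc (chromosome 6, 70726435 to 70726966, plus strand), the single kappa constant region, was at 291.5, 233 and 321 CPM in the WT-labelled and 196, 202 and 186 CPM in the dKO-labelled libraries. The groups did not overlap, with means of 282 ± 44.6 and 194.6 ± 8.13 (SD, n = 3) and a log2 fold change of -0.54 ± 0.10 (SE). Heavy chain counts were 1.98, 2.04 and 1.98 times the light chain counts in the WT-labelled and 2.04, 2.36 and 2.42 times in the dKO-labelled libraries. The groups overlapped in this ratio through dKO replicate 1.

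Iglc1, the most abundant lambda constant region in 5 of the 6 libraries, had 41, 20 and 41 counts in the WT-labelled and 11, 17 and 17 in the dKO-labelled libraries, although dKO replicate 3 had the most counts outside the ribosomal RNA row. On the CPM scale it was at 8.96, 6.34 and 10.5 against 2.11, 4.13 and 1.11. The groups did not overlap, and the log2 fold change of -2.21 ± 0.28 (SE) was the furthest from 0 among the 8 tested members. It was -1.52 without dKO replicate 3, -2.65 without dKO replicate 2 and -1.91 by DESeq2, which did not call it.

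Iglc2 behaved otherwise. It had 7, 4 and 2 counts in the WT-labelled and 1, 5 and 31 in the dKO-labelled libraries, and only in dKO replicate 3 did it outnumber Iglc1. On the CPM scale, which allows for the depth of dKO replicate 3, it was at 1.53, 1.27 and 0.510 against 0.192, 1.21 and 2.02, with overlap. Iglc3 had 3, 1 and 2 counts against 3, 3 and 15, or 0.656, 0.317 and 0.510 CPM against 0.576, 0.728 and 0.979. Within the lambda counts of these 3 genes, Iglc1 therefore held 80.4%, 80.0% and 91.1% in the WT-labelled and 73.3%, 68.0% and 27.0% in the dKO-labelled libraries. With 15 to 63 lambda counts in each library these shares are imprecise: the 95% Wilson interval of dKO replicate 1 was 48.0% to 89.1% and that of dKO replicate 3 was 17.6% to 39.0%. Iglc4 had 0 counts in all 6 libraries.

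The lambda share of light chain counts, Iglc1 and Iglc2 together, was 3.47%, 3.16% and 3.31% in the WT-labelled and 1.16%, 2.58% and 1.66% in the dKO-labelled libraries. The groups did not overlap, but the 95% Wilson interval of dKO replicate 2, 1.71% to 3.87%, covered all 3 WT-labelled values. With Iglc3 included the share was 3.47% ± 0.199 against 2.18% ± 0.735 (SD, n = 3). Put the other way, there were 27.8, 30.7 and 29.3 Igkc counts for each lambda count in the WT-labelled and 85.2, 37.8 and 59.3 in the dKO-labelled libraries.

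Variable segments, which encode the antigen-binding end of each chain and are counted as genes of their own, give a second reading of each chain. They were not used in choosing the genes, but they come from the same transcripts and libraries. Heavy chain variable counts were 0.271, 0.271 and 0.256 of the heavy constant counts in the WT-labelled and 0.265, 0.269 and 0.277 in the dKO-labelled libraries. This ratio was nearly constant. Kappa variable counts were 0.650, 0.552 and 0.583 of Igkc against 0.612, 0.665 and 0.709, with overlap between the groups.

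The lambda chain differed from that pattern. Lambda variable counts were 0.706, 0.880 and 0.556 of the counts of Iglc1, Iglc2 and Iglc3 in the WT-labelled libraries and 1.53, 0.880 and 1.13 in the dKO-labelled ones. The lambda share of light chain variable counts was 3.99%, 5.14% and 3.30% against 3.55%, 3.83% and 3.40%, so that the groups overlapped, unlike for the constant regions. Iglv1, a variable segment that joins mainly to Iglc1 and Iglc3, was lower in the dKO-labelled libraries, with a log2 fold change of -0.98 ± 0.25 (SE), given as a description because it was singled out after its values were seen. Its levels were 7.43, 6.97 and 5.87 CPM against 3.45, 5.10 and 2.87 CPM. Iglv2, which joins mainly to Iglc2, had 0, 0 and 1 counts against 0, 0 and 14, so that its counts, like those of Iglc2, were highest in dKO replicate 3. The 14 counts are 0.914 CPM and the 1 count of WT replicate 3 is 0.255 CPM.

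**Figure D4:**
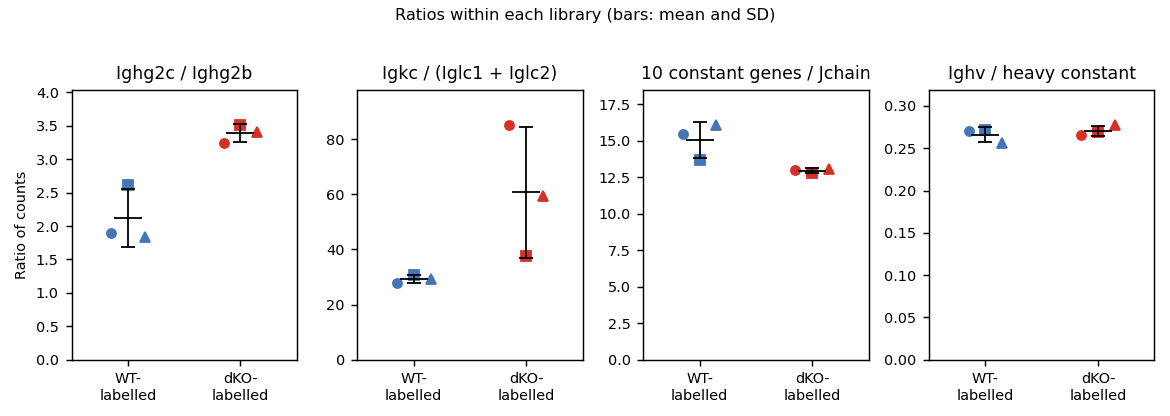
Ratios of counts within each library, WT-labelled in blue and dKO-labelled in red, with the mean and SD of 3 libraries in black; each vertical axis starts at 0. Ighg2c to Ighg2b, Igkc to lambda and the constant regions to Jchain are apart between the groups, while heavy variable to heavy constant counts overlap between 0.256 and 0.277.

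Genes of antibody-making cells other than the antibody genes are given next, beside the 1.92% of all tested genes called in either direction. At that share short lists hold few called genes or none, so nothing is read from a list with 0 called. Jchain was at 57.7 ± 3.98 CPM in the WT-labelled and 50.1 ± 4.21 CPM in the dKO-labelled libraries (SD, n = 3), a log2 fold change of -0.21 ± 0.099 (SE) with an adjusted p of 0.342 by edgeR. The 10 constant region genes had 15.5, 13.7 and 16.1 counts for each Jchain count in the WT-labelled and 13.0, 12.8 and 13.1 in the dKO-labelled libraries, with no overlap. Since Jchain protein binds IgA and IgM, the sum of Igha and Ighm was set against it too: that ratio was 2.89, 2.11 and 2.53 against 2.14, 2.34 and 2.04, with overlap.

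Among 17 plasma cell genes, 7 were tested and 0 were called by edgeR's quasi-likelihood test, DESeq2 or limma-voom; 2 had an unadjusted p under 0.05 by edgeR, and the median log2 fold change was -0.16. Slamf7, a surface receptor of plasma cells and other lymphocytes, had a log2 fold change of -0.76 ± 0.27 (SE; adjusted p = 0.167 by edgeR) and Xbp1, the transcription factor that expands the secretory apparatus, -0.16 ± 0.13 (adjusted p = 0.693 by edgeR), which was 0.015 without WT replicate 1. Slamf7 was at -0.43 when dKO replicate 3 was left out. The summed plasma cell markers took 0.108%, 0.0942% and 0.102% of the counts outside the ribosomal RNA row in the WT-labelled and 0.0852%, 0.0962% and 0.0962% in the dKO-labelled libraries. The groups overlapped. Jchain and Xbp1 had 1900 and 643 counts over all 6 libraries, the most of the 17 genes, so the sum rests largely on them. Of the defining plasma cell genes Mzb1, an antibody assembly chaperone, had 1 to 4 counts in a library, and Tnfrsf17, the survival receptor BCMA, had 1 count in all. Their part in the lower constant region levels was not tested.

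Of 20 genes of antibody folding and secretion, 19 were tested and 0 were called by edgeR's quasi-likelihood test, DESeq2 or limma-voom. The unadjusted p was under 0.05 for 1 of them by edgeR, and the median log2 fold change was -0.036. These genes serve every secreting cell. Sec61a1, the channel into the endoplasmic reticulum, had a log2 fold change of 0.28 ± 0.13 (SE; adjusted p = 0.346 by edgeR) and Herpud1, of its degradation pathway, 0.29 ± 0.16 (adjusted p = 0.449 by edgeR). Herpud1 was at 0.52 without WT replicate 1, 0.14 without WT replicate 3 and 0.19 without dKO replicate 3. The chaperones Hspa5, which binds free heavy chains, and Calr stood at -0.10 ± 0.10 and -0.00072 ± 0.099; the sign of the Calr value changed with the scaling. Hspa5 was between -0.22 (dKO replicate 3 left out) and -0.043 (WT replicate 2 left out).

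B cell genes were sparse: of 19, 4 passed the filter, 0 were called by edgeR's quasi-likelihood test, DESeq2 or limma-voom, and 0 had an unadjusted p under 0.05 by edgeR. Cd22, an inhibitory receptor of B cells, had a log2 fold change of 0.62 ± 0.32 (SE; adjusted p = 0.416 by edgeR), Syk, a kinase of the B cell receptor that myeloid cells also use, -0.30 ± 0.20 (adjusted p = 0.576 by edgeR) and Cd72, a B cell coreceptor, -0.011 ± 0.18, with a sign that changed with the scaling. Without dKO replicate 3, Cd22 was at 0.40 and Syk at -0.60, and Syk was at -0.18 without WT replicate 1. Of the defining genes Ms4a1 had 1 to 23 counts in a library, and Pax5 had 1 count in all. The summed B cell markers took 0.0304% ± 0.00420 and 0.0309% ± 0.00348 (SD, n = 3) of the counts outside the ribosomal RNA row, with overlap. The median log2 fold change of the 4 genes was -0.12.

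Of 16 genes of V(D)J recombination and class switching, 6 were tested, 0 were called by edgeR's quasi-likelihood test, DESeq2 or limma-voom, and 0 had an unadjusted p under 0.05 by edgeR, with a median log2 fold change of 0.13. The tested genes are DNA repair genes that most cells use, among them Xrcc5 at 0.30 ± 0.31 (SE; adjusted p = 0.767 by edgeR) and Prkdc at 0.15 ± 0.22. Without dKO replicate 2, Prkdc was at -0.10 and Xrcc5 at 0.059; with dKO replicate 3 left out they were at 0.47 and 0.62. They were at 0.024 and 0.17 without WT replicate 1, and Prkdc was at 0.27 without WT replicate 3.

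Of 11 genes for antibody receptors and transport, 7 were tested, 1 was called higher and 0 lower, beside the 0.734% of all genes called higher. Fcgr3, an activating Fc receptor for IgG on macrophages, microglia and natural killer cells, was at 19.0, 18.7 and 21.4 CPM in the WT-labelled and 26.9, 26.7 and 26.6 CPM in the dKO-labelled libraries. Fcgr3 was higher by 0.44 ± 0.12 on the log2 scale (SE, adjusted p = 0.0348 by edgeR), with each dKO-labelled library above each WT-labelled one. Its list was chosen with earlier results of these data known, so this p is given as a description. The call was lost in 5 of the 6 fits that left out 1 library and with DESeq2 (adjusted p = 0.438). The adjusted p by edgeR was 0.238 when WT replicate 1 was left out and 0.167 when WT replicate 2 was. It was 0.0550, 0.0597 and 0.124 when dKO-labelled replicates 1, 2 and 3 were left out in turn. Fcgr2b, the inhibitory receptor, had a log2 fold change of 0.32 ± 0.13 (adjusted p = 0.257 by edgeR), and the median of the 7 genes was -0.049. An unadjusted p under 0.05 by edgeR was reached by 4 of the 7, and the other two of these, named after their values were seen, had values below 0. Trim21, an antibody receptor of the cytosol, was at -0.65 ± 0.21 (SE; adjusted p = 0.104 by edgeR) with no overlap between the groups, and Fcer1g, the signalling chain shared by activating Fc receptors, at -0.37 ± 0.16 (adjusted p = 0.283 by edgeR). Fcgr4, another activating receptor, was at -0.23 ± 0.17 (adjusted p = 0.663 by edgeR), also with no overlap. Microglia and macrophage markers, 10 of 10 tested with 1 called higher, took 0.452% ± 0.0224 and 0.503% ± 0.00771 (SD, n = 3) of the counts outside the ribosomal RNA row, without overlap. Their part in the Fcgr3 value was not tested. Pigr, which carries IgA and IgM across epithelia, had 0 counts in every library.

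**Figure D5:**
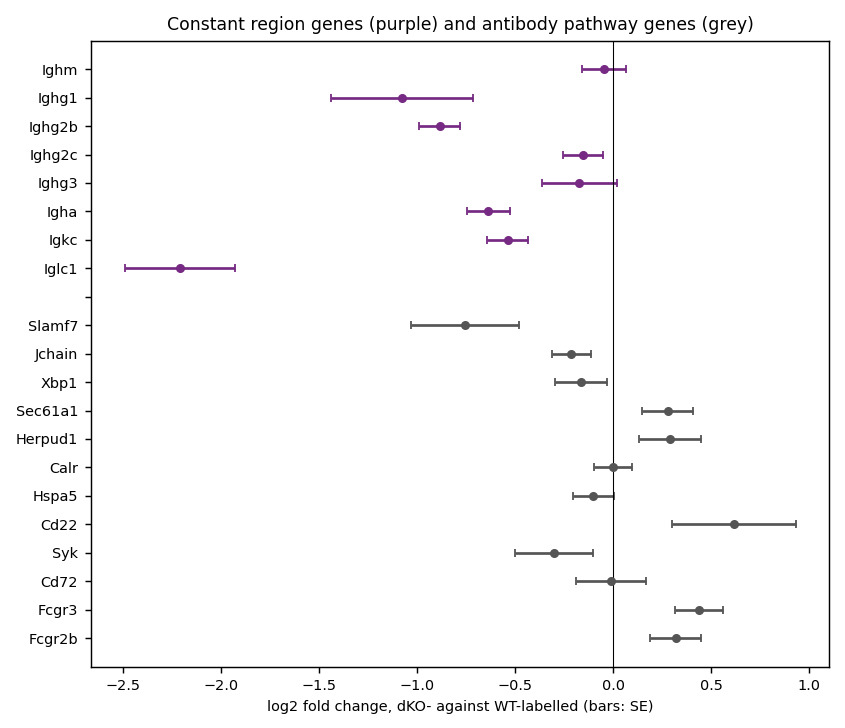
log2 fold change, dKO-labelled against WT-labelled, with SE, of the 8 tested constant region genes (purple) and 12 genes of 4 antibody pathway lists (grey). The constant region genes lie between -2.21 and -0.047, the 12 plotted pathway genes between -0.76 and 0.62.

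Markers of other cells of the retina also differed with the group. Rod markers took 0.165% ± 0.0125 of the counts outside the ribosomal RNA row in the WT-labelled and 0.343% ± 0.0393 in the dKO-labelled libraries (SD, n = 3), with 6 of 9 tested genes called higher, and bipolar markers took 0.177% ± 0.00475 and 0.127% ± 0.00291, with 4 of 8 called lower. Over all tested genes 0.734% were called higher and 1.18% lower. T and NK cell markers, at 0.0311% ± 0.00351 and 0.0319% ± 0.00226, overlapped. Of 5 tested, 1 was called lower by edgeR and 0 by DESeq2, and 4 were above 0. The called gene was Gzma, at a log2 fold change of -1.01 ± 0.28 (SE, adjusted p = 0.0369 by edgeR). Müller glia and astrocyte markers took 2.56% ± 0.0432 and 2.78% ± 0.109, without overlap, with 1 of 8 called higher (Gfap, 0.69 ± 0.12). The part of these markers in the constant region values was not tested.

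Of 2320 tested genes outside the immunoglobulin loci with a mean of at least 10 CPM, the 5 whose log2 levels over the 6 libraries were most like the summed constant regions included Mef2c (Pearson r = 0.975), Hmgb1 (0.962), Ptbp3 (0.959) and Trim30a (0.956). With 6 libraries that share the group difference and the scaling, these values are a description only. Mef2c encodes a transcription factor and Hmgb1 a chromatin protein; of the 5 genes only Trim30a, at a log2 fold change of -1.21, was called.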

How the data were processed

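The deposited values are whole-number counts of reads for each Ensembl gene, without normalization. The submitters' processing notes name STAR 2.7.0d, DESeq2 1.22.2 and the build GRCm38. How the reads were counted, with which strand setting and annotation, is not given in the sources used here. Per the labels' protocols, the kit was a stranded total RNA kit. Library totals were 4569880 to 6146226 counts, but 346037 to 1636581 outside the ribosomal RNA row, which sets the precision.

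The test was edgeR's two-sided quasi-likelihood test (edgeR 4.0.16, R 4.3.3) on group alone, after TMM scaling and filterByExpr (at least 10 counts, total at least 15), with Benjamini-Hochberg adjustment over 8444 genes. SEs were obtained from the log2 fold change and its F. The steps were tested on simulated data. Shares and ratios come from the counts of 1 library, with 95% Wilson intervals. Overlap between the 3 libraries of each group is a description only, and its share over all tested genes was not computed. A count of 0 allows up to 3 counts. Lengths, positions and sequences come from GENCODE M21 on GRCm38.

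The members and the 13 gene lists were chosen with earlier results of these data known, so p-values of their genes are given as a description. All members are named, with the related genes Iglc3, Iglc4 and Ighe; from each of the 5 pathway lists up to 4 called genes, otherwise the 2 of lowest p, together with the 2 most abundant; and the 5 genes most like the summed members. Some genes that this rule names are not reported here. The alternatives tried were scaling by RLE, by the upper quartile or by the library total, 2 other filters, DESeq2 1.42.0, limma-voom (limma 3.58.1), no ribosomal RNA row, dKO replicate 3 thinned, a replicate block and each library left out in turn. The length of the transcript with the fewest exons, and the rule for variable segments, were added after seeing the data.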

Additional observations from a re-analysis of the deposited data

How the results depend on the processing

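The number of constant region genes called lower, 4, was 0 with library total scaling and 2 with DESeq2 (adjusted p = 0.550 for Igha and 0.0938 for Iglc1), and was 4 to 5 with each library left out. Library total scaling moved the median log2 fold change of all genes by 1.21; there 7 of the 8 members were above 0, and relative to that median all 8 were below it. The number of antibody pathway genes called, 1, was 0 with library total scaling, with DESeq2 and with dKO replicate 3 thinned, and 0 to 1 with each library left out. The constant region share, dKO-labelled over WT-labelled, was 0.753 and became 1.70 over the library total. Of 128 alternative values of the members' fold changes, 118 kept their sign and their side of the threshold. For this count the signs under library total scaling were taken relative to the median gene. The refits use the same 6 libraries on which the genes were chosen, so this count describes the processing and is no support for the fold changes.

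With each library left out, the log2 fold change ranged from -0.13 to 0.083 for Ighm, -0.31 to 0.086 for Ighg3, -0.26 to 0.015 for Xbp1, -0.090 to 0.077 for Calr, -0.11 to 0.055 for Cd72 and -0.10 to 0.47 for Prkdc. Calr, near 0, was at 0.023 (upper quartile), 0.030 (library total, relative to the median gene), 0.027 (no filter), 0.0090 (limma-voom) and 0.0046 (no ribosomal RNA row). Cd72 was at 0.014, 0.0017 and 0.022 in the first 3 of these and 0.066 with dKO replicate 3 thinned. The cause was not tested. Deviations from the group means correlated at 0.022, 0.012 and 0.027 between libraries of the same replicate number. Between those of different numbers the correlations were -0.021 to 0.00031. Counting noise may hide a pairing at this depth, so these values cannot decide whether the replicate numbers pair the samples. With the replicate block 4 constant region and 1 pathway genes were called.

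Precision is limited by the 25 or fewer lambda counts of WT replicate 2, dKO replicate 1 and dKO replicate 2.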

Other observations

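Of 216 variable segments in the table, 152 had a count and 76 had at least 20 counts over the 6 libraries. Among these 76, 5 had counts in every WT-labelled library and none in any dKO-labelled one, and 3 the reverse, by a rule chosen after seeing the data. Igkv8-19 had 17, 6 and 32 counts in WT-labelled replicates 1 to 3 and 0 in each dKO-labelled library. Ighv2-9-1 had 29, 9 and 24 counts and Ighv6-6 had 20, 21 and 11, also against 0 in each dKO-labelled library. In the other direction, Igkv4-86 had 9, 13 and 40 counts in dKO-labelled replicates 1 to 3, Ighv10-3 had 3, 8 and 41 and Ighv1-31 had 2, 3 and 32, with 0 in each WT-labelled library. The labels do not say whether the 3 libraries of a group came from the same mice.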
